A study of Mus musculus with 8 samples.

Results

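The genes that make, bind, sense and clear retinoic acid were followed through 8 tag-count libraries of mouse neural tube. The 9 genes were chosen by name, as the rows whose gene symbol was Rdh10, Aldh1a2, Dhrs3, Crabp1, Crabp2, Rara, Rarb, Rarg or Cyp26a1. They are 9 of the 26608 genes listed in each library, and all 9 had a count in at least 1 library. FVB mouse embryos at day 8.5 of gestation were sectioned, and neural tube was laser-dissected on either side of closure site 1, the point where the neural folds first meet. Tissue in front of that point was still open and tissue behind it had closed. Closure and position along the body axis therefore cannot be told apart in any comparison of open and closed tissue. Embryos came from normal or from diabetic dams, which gives 4 groups of 2 libraries: normal open (libraries 09 and 10), normal closed (11 and 12), diabetic open (13 and 14) and diabetic closed (15 and 16). The sources used here do not give the cause of diabetes in the dams, the number of embryos and litters per library, or whether an embryo supplied tissue of both kinds. The p-values therefore measure only the spread between these libraries, which may be technical.

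Retinoic acid is made from vitamin A in 2 oxidation steps: Rdh10 turns retinol into retinaldehyde, Dhrs3 turns retinaldehyde back into retinol, and Aldh1a2 turns retinaldehyde irreversibly into retinoic acid. In the cell the acid is carried by Crabp1 and Crabp2, acts through the nuclear receptors Rara, Rarb and Rarg on paired DNA repeats, and is broken down by Cyp26 enzymes. In embryos of this stage Aldh1a2 is known as a gene of the trunk mesoderm beside the neural tube, which receives the acid by diffusion, while Crabp1 is known from the hindbrain and from neural crest.

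Libraries held between 5041586 and 16655583 counts, each made from 7 ng of total RNA by SAGE, a method that reads 1 tag from the 3′ part of a transcript. Levels below are counts divided by the library total and multiplied by 1000000 (CPM), so they are not scaled by transcript length. Whether the tags of different genes are counted equally well was not tested, which limits every comparison of level between genes. A gene with no count could have stood at up to 0.18 to 0.595 CPM, the level of 3 counts, depending on the library. This holds only if its tag can be counted at all. Neural markers such as Sox2 were present throughout. Library 13 stood apart in neural and mesoderm genes, and libraries 13 and 14, both of diabetic open tissue, stood apart in a blood gene. In library 13 the neural progenitor gene Sox2 was at 30.9 CPM, against 287 to 550 CPM in the other 7 libraries, and the summed level of 20 paraxial mesoderm genes was 1787 CPM, against 209 to 873 CPM. In library 14 the same sum was 329 CPM and Sox2 stood at 418 CPM, both within the range of the libraries of the other groups. The embryonic globin gene Hba-x was at 891 and 994 CPM in libraries 13 and 14 and at 0.296 to 203 CPM elsewhere. Hbb-y, listed with it as a primitive blood gene, had no tag in any library.

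Rarb and Cyp26a1 carry a known type of retinoic acid response element in their promoters, shown because the levels of the same genes are given below. The element searched was DR5, a direct repeat of a 6-base receptor site with 5 bases between the copies, on both strands, in RefSeq promoter windows of 300 bases (250 before to 50 after each start site, build GRCm38.p6). Capitals mark the element, including its spacer, and each stretch is printed 5′ to 3′ on the strand of its gene.
Rarb, minus strand, chr14:16575483-16575559: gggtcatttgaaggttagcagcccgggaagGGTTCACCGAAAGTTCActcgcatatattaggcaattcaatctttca
Cyp26a1, plus strand, chr19:37697746-37697822: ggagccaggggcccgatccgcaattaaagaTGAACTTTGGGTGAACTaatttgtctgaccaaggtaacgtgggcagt
The Rarb element lies 53 to 37 bases before the start site and reads along the strand of the gene. The Cyp26a1 element lies 32 to 16 bases before the start site and reads on the opposite strand. Windows were found for 7 of the 9 genes, 13 windows in all, and a match was found in these 2 genes. Crabp2 and Rdh10 had no window. Among all 32851 windows 0.0974% held a match, from 31 of 27025 genes. A match is a description of letters, not a measured binding site.

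The 9 genes covered a wide range of levels. Crabp1 averaged 5989 CPM over the 8 libraries and had the highest level of the 9 in every library. Aldh1a2 averaged 120.7 CPM and Rarb 103 CPM. These neighbours in the order were not separated, since Aldh1a2 was above Rarb in 5 of 8 libraries and below it in 3. Dhrs3 averaged 20.9 CPM, Rara 12.8 CPM, Cyp26a1 6.04 CPM and Crabp2 4.33 CPM, and the ranges of these 4 over the libraries overlapped. Rarg at 0.515 CPM and Rdh10 at 0.476 CPM were near the level of a few counts.

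**Figure D1:**
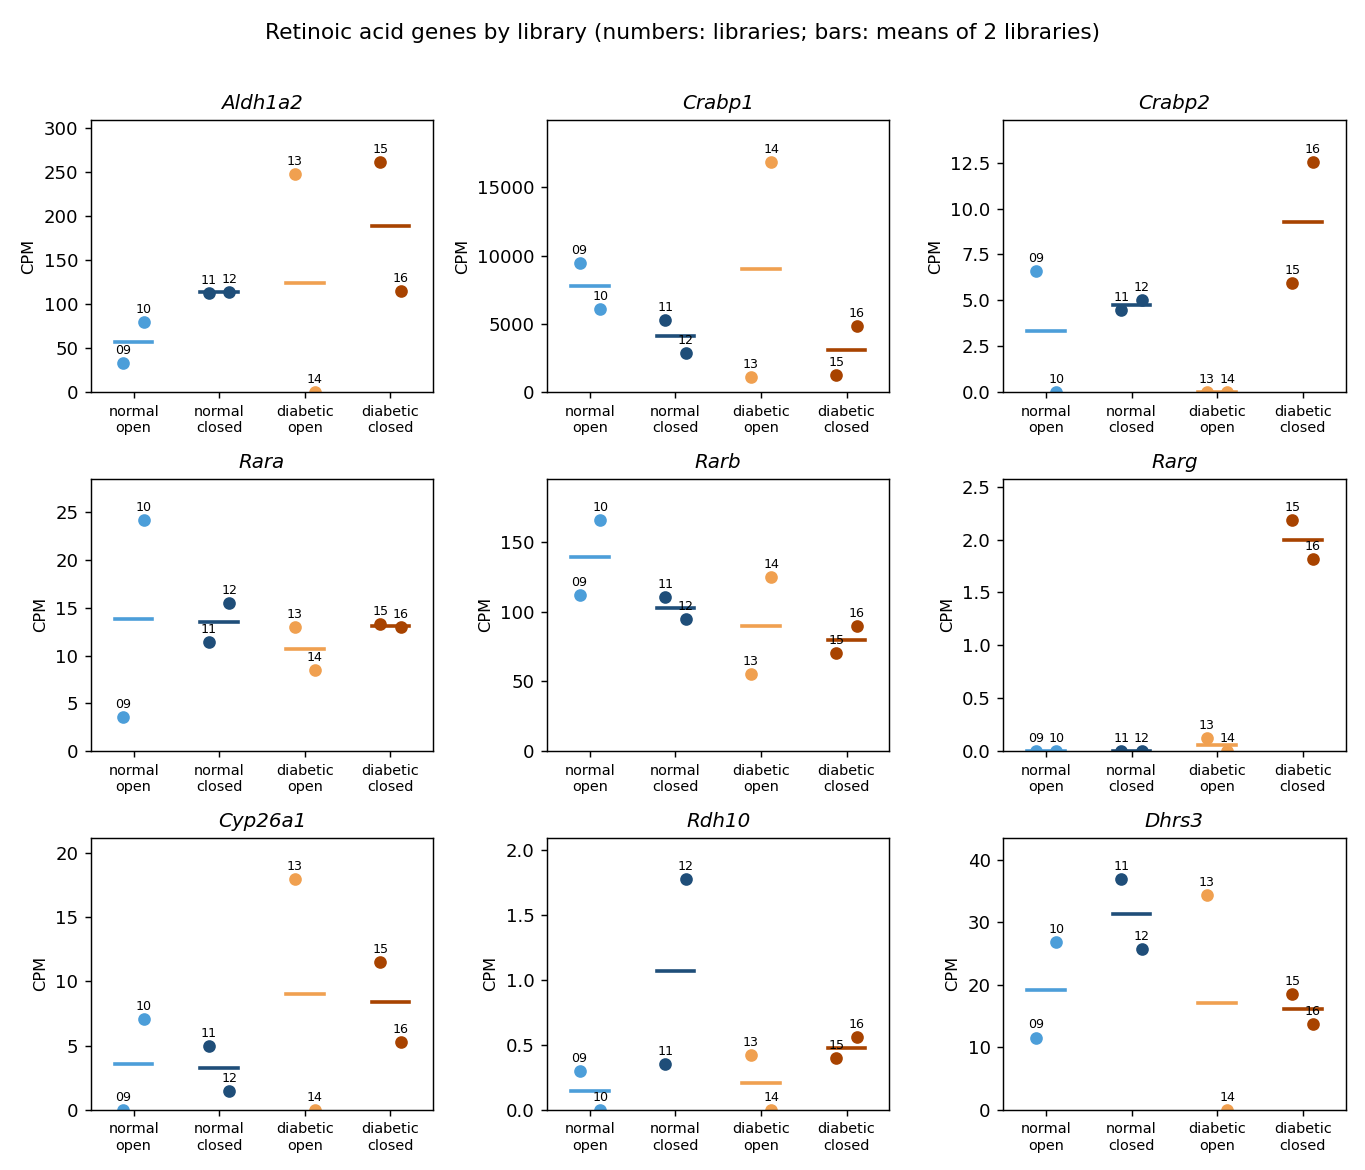
Level in CPM (vertical axes, linear and scaled per gene) of each of the 9 genes in the 8 libraries, by dam and region, with points labelled by library and bars at the mean of the 2 libraries of a group. The highest Crabp1 value, 16890 CPM, and the lowest Aldh1a2 value, 0.597 CPM, come from the same diabetic open library, 14.

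Aldh1a2, the enzyme that makes the active acid, stood at 33.4 and 80.1 CPM in normal open, 113 and 114 CPM in normal closed, 248 and 0.597 CPM in diabetic open, and 262 and 115 CPM in diabetic closed tissue. Within normal dams both closed libraries were above both open ones, while the diabetic open libraries lay at opposite ends of the range. Library 14 had 5 Aldh1a2 counts (exact Clopper-Pearson 95% interval 0.194 to 1.39 CPM, counting error only), and the next lowest library, 09, had 338 counts (29.9 to 37.1 CPM). The highest library exceeded library 14 by 439 times and exceeded library 09 by 7.85 times. Closed tissue averaged 151 ± 74.0 CPM against 90.5 ± 109.8 CPM for open tissue (SD over 4 libraries each), which is 0.85 on the log2 scale (SE 0.95; edgeR quasi-likelihood test, Benjamini-Hochberg adjusted p = 0.9999). It was 156 ± 123 CPM in diabetic and 85.1 ± 37.9 CPM in normal dams, a log2 fold change of 0.93 (SE 0.95; edgeR adjusted p = 0.9992). Both log2 fold changes were smaller than their SE. The difference in means between regions was smaller than the SD of either region. That between dams was smaller than the SD of diabetic dams but larger than that of normal dams. The log2 fold change between regions was 2.52 without library 13 and 0.47 without library 14, and that between dams was -0.73 and 1.32.

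The Aldh1a2 contrasts that use diabetic open tissue changed direction with the library left out, and those within normal dams and within closed tissue did not, at 0.57 to 1.75 and 0.01 to 1.22. Closed against open tissue of diabetic dams gave a log2 fold change of 0.64 (SE 1.40) with all libraries, 8.31 without library 13 (edgeR adjusted p = 0.00888) and -0.32 without library 14. Diabetic against normal dams in open tissue gave 1.14 (SE 1.42) with all libraries, -6.52 without library 13 (edgeR adjusted p = 0.0301) and 2.11 without library 14. The interaction of region and dam was -0.42 (SE 1.98) with all libraries and 7.26 without library 13 (edgeR adjusted p = 0.0439). In each of these 3 fits the diabetic open group is library 14 alone, which is then assumed to vary like the other groups. Of the 12825 genes tested without library 13, 0.0312%, 0.039% and 0.0156% were called in these comparisons. The comparisons share libraries and are not independent of each other.

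Markers of the mesoderm beside the neural tube followed the order of Aldh1a2 only in part. Meox1, a somite transcription factor, was at 55.3 and 146.6 CPM in normal open, 61.4 and 76.0 CPM in normal closed, 184 and 17.9 CPM in diabetic open, and 228 and 91.7 CPM in diabetic closed tissue. Its highest values were thus in the 2 libraries with the most Aldh1a2, 13 and 15, and its lowest in library 14. Of 20 paraxial mesoderm genes listed, 17 had a count, and their summed level ran from 209 to 493 CPM in normal dams and from 329 to 1787 CPM in diabetic dams. Library 14, at 329 CPM, was above libraries 09 and 12 in that sum. Tcf15, another somite gene, ran from 1.19 to 30.7 CPM and stood at 9.91 CPM in library 14, above libraries 09, 11, 12 and 16. Of other genes of the list, chosen after their values were seen, Twist1 was at 113 CPM in library 14, the second highest of the 8. Meox2 and Uncx, chosen in the same way, did follow Aldh1a2 at both ends. Both had no tag in libraries 09 and 14 and were highest in libraries 13 and 15. Meox2 was at 128 and 69.2 CPM there, and Uncx at 13.4 and 31.5 CPM. In bulk tissue, fewer cells of a type and less RNA per cell cannot be told apart, and the part of mesoderm in the Aldh1a2 values was not tested.

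Rdh10, the enzyme of the first oxidation step, had 0 to 12 counts per library and did not pass the filter on low counts, so it has no test. Its level was 0.296 and 0 CPM in normal open, 0.356 and 1.78 CPM in normal closed, 0.42 and 0 CPM in diabetic open, and 0.397 and 0.558 CPM in diabetic closed tissue. Library 12 was the highest, and its exact 95% interval of 0.918 to 3.10 CPM lay above those of libraries 09, 10, 13 and 14, all in open tissue, and overlapped those of the other closed libraries. Dhrs3, which returns retinaldehyde to retinol, was at 11.6 and 26.8 CPM in normal open, 36.9 and 25.6 CPM in normal closed, 34.3 and 0 CPM in diabetic open, and 18.4 and 13.7 CPM in diabetic closed tissue. It was detected in 7 libraries and had no count in library 14, which allows up to 0.358 CPM. Both closed libraries of diabetic dams were below both of normal dams, and open tissue overlapped. The additive log2 fold changes of Dhrs3 were 0.36 (SE 1.03) for closed against open and -0.56 (SE 1.03) for diabetic against normal dams, with edgeR adjusted p of 0.9999 and 0.9992. Without library 13 they were 2.14 and -2.35, and without library 14 they were -0.01 and -0.20.

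Crabp1, a cytoplasmic carrier of retinoic acid, stood at 9480 and 6114 CPM in normal open, 5320 and 2846 CPM in normal closed, 1130 and 16890 CPM in diabetic open, and 1261 and 4875 CPM in diabetic closed tissue. In normal dams both open libraries were above both closed ones, whereas the diabetic open libraries held the lowest and the highest value of the 8. Its 141464 tags made up 1.69% of library 14, where it was the most abundant gene of all, and 0.113% of library 13, where it ranked 112. Closed tissue averaged 3575 ± 1882 CPM against 8403 ± 6616 CPM for open tissue (SD over 4 libraries each), which is -1.21 on the log2 scale (SE 0.66; edgeR unadjusted p = 0.0931, adjusted p = 0.9999). This difference was -0.07 without library 14 and -1.58 without library 16. For diabetic against normal dams the log2 fold change was -0.12 (SE 0.65; edgeR adjusted p = 0.9992), with 6038 ± 7439 CPM in diabetic and 5940 ± 2740 CPM in normal dams (SD, n = 4 each). That value was -1.26 without library 14 and 0.22 without library 13.

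Within dams, closed against open tissue gave a Crabp1 log2 fold change of -0.90 (SE 0.96) in normal dams and -1.52 (SE 0.97) in diabetic dams. The interaction was -0.63 (SE 1.34; edgeR adjusted p = 0.9999), so a difference between the dams was not shown. The value in diabetic dams was 1.5 without library 14 and -2.78 without library 16. With no filter on low counts, edgeR called Crabp1 lower in closed tissue in the additive model (adjusted p = 5.5e-07) and within diabetic dams (0.00086), and no other setting called it. Of the 15162 genes in that fit 0.191% and 0.27% were called. The cause of that dependence was not tested.

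Crabp1 and Aldh1a2 took nearly opposite orders over the libraries. Libraries 13 and 15 had the 2 lowest Crabp1 and the 2 highest Aldh1a2 levels, and libraries 14 and 09 had the 2 highest Crabp1 and the 2 lowest Aldh1a2 levels. The ratio of Crabp1 to Aldh1a2 tags was 284 and 76.3 in normal open, 47.1 and 25.0 in normal closed, 4.56 and 28290 in diabetic open, and 4.81 and 42.4 in diabetic closed tissue. In normal dams this ratio was higher in both open than in both closed libraries, and in diabetic dams the open libraries lay on either side of the closed ones. The libraries share their totals, so the 2 levels are not fully independent, and the order is given as a description.

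**Figure D2:**
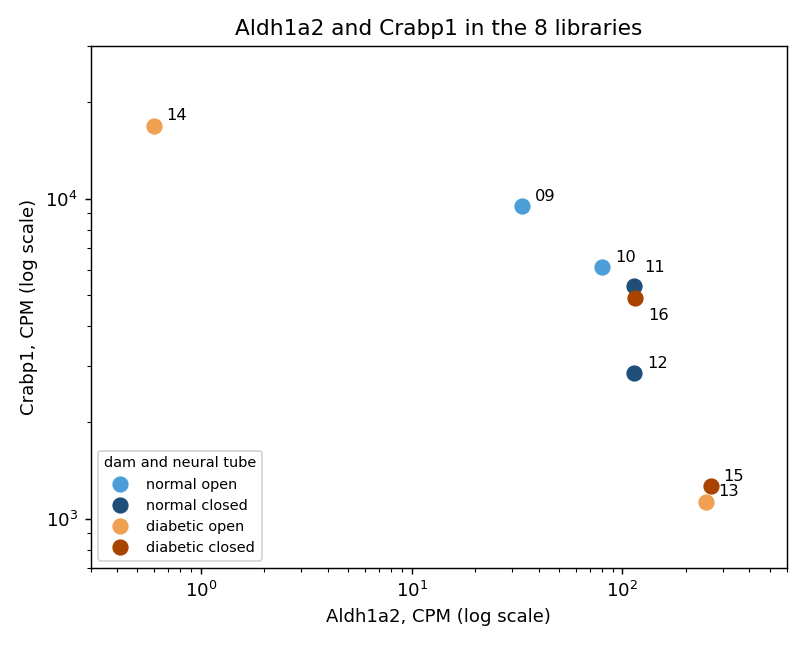
Crabp1 level (vertical axis, CPM, log scale) against Aldh1a2 level (horizontal axis, CPM, log scale), 1 point per library, coloured by dam and region and labelled by library. Libraries 13 and 15 lie at the lower right, at 1130 and 1261 CPM of Crabp1, and library 14 lies alone at the upper left, at 16890 CPM.

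Crabp2, the carrier that hands retinoic acid to the receptors, was scarce beside its paralog, and Crabp1 supplied at least 99.5% of the tags of the pair in every library. Crabp2 was at 6.62 and 0 CPM in normal open, 4.45 and 5.04 CPM in normal closed, 0 and 0 CPM in diabetic open, and 5.95 and 12.6 CPM in diabetic closed tissue. All 4 closed libraries had Crabp2 tags, and library 09 was the only open library with any. Over the 2 libraries of a group there were 120 tags in diabetic closed and 0 in diabetic open tissue, so the pooled level was at least 82.0-fold higher in closed tissue, taking 3 counts over the group as the floor. It was at least 35.4-fold higher in normal open than in diabetic open tissue by the same floor. These bounds set an upper limit for the group at 0 only and take the count of the higher group as exact. They therefore do not cover its counting error, and they depend on single libraries. All 67 tags of normal open tissue came from library 09, so no bound exists without it, and that bound was 11.8-fold without library 13 and 23.5-fold without library 14. Library 16 held 90 of the 120 tags of diabetic closed tissue, and the first bound was 49.7-fold without it, 27.4-fold without library 13 and 54.6-fold without library 14. The edgeR test gave unadjusted p = 0.0144 for closed against open tissue of diabetic dams, 0.0244 for diabetic against normal dams in open tissue and 0.0317 for the interaction, with adjusted p of 1, 0.651 and 0.9999.

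Rarb, whose gene carries the response element printed above, was the most abundant of the 3 receptors. It stood at 112 and 166 CPM in normal open, 110.4 and 94.8 CPM in normal closed, 55.5 and 125 CPM in diabetic open, and 70.4 and 89.7 CPM in diabetic closed tissue. In normal dams both closed libraries were below both open ones, and in closed tissue both libraries of diabetic dams were below both of normal dams, but in open tissue the dams overlapped. The first order rests on 110.4 against 112.4 CPM and the second on 89.7 against 94.8 CPM. Both pairs overlapped in exact 95% intervals. Diabetic dams averaged 85.1 ± 29.98 CPM against 120.8 ± 31.0 CPM for normal dams (SD over 4 libraries each), which is -0.50 on the log2 scale (SE 0.28; edgeR unadjusted p = 0.1, adjusted p = 0.9992). For closed against open tissue the log2 fold change was -0.26 (SE 0.28; edgeR adjusted p = 0.9999). The difference between dams ranged from -0.74 to -0.28 when each library was left out in turn, and that between regions from -0.48 to -0.02. The annotated 3′ end of Rarb is overlapped on the other strand by Top2b, a topoisomerase gene at 306 to 581 CPM (GENCODE M21), and whether counting used strand is not given in these sources. Tags of the 2 genes therefore cannot be told apart with certainty, and the Rarb level is uncertain.

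Rara, the broadly expressed receptor, was at 3.56 and 24.2 CPM in normal open, 11.4 and 15.6 CPM in normal closed, 12.97 and 8.48 CPM in diabetic open, and 13.3 and 12.98 CPM in diabetic closed tissue. The normal open libraries held the lowest and the highest value, and all other libraries lay between them. The log2 fold changes were 0.19 (SE 0.67) for closed against open and -0.20 (SE 0.67) for diabetic against normal dams, with edgeR adjusted p of 0.9999 and 0.9992. Without library 10 these became 0.92 and 0.54, and without library 09 they became -0.12 and -0.50.

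Rarg, the third receptor, known from the caudal end of the embryo, was the rarest. It had no tag in the 4 libraries of normal dams, 2 tags in diabetic open library 13 (0.12 CPM), none in library 14, and 11 and 13 tags in diabetic closed libraries 15 and 16 (2.18 and 1.81 CPM). Nearly all of its tags thus came from closed tissue of diabetic dams. Rarg passed the filter on low counts only through these 2 libraries, so its higher level there is a description and no support. They were also the libraries with the most genes with a count, 12308 and 12924. With the floor used for Crabp2 and the higher count taken as exact, the pooled level was at least 8.11-fold higher in diabetic closed than in normal closed tissue. It was at least 4.43-fold higher without library 11 and 3.68-fold without library 12. It was 24.6 times that of diabetic open tissue (95% interval 6.11 to 215, counting error only), 16.4 times without library 14, and at least 5.49-fold higher without library 13, where no open tag is left. The edgeR test gave an adjusted p of 0.9999 for closed against open and 0.9992 for diabetic against normal dams.

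The make-up of the receptor pool was described by the share of Rarb among the tags of the 3 receptors, as far as the tags counted for Rarb are its own and not those of Top2b. Rarb supplied 96.9% and 87.3% in normal open, 90.6% and 85.9% in normal closed, 80.9% and 93.6% in diabetic open, and 82.0% and 85.9% in diabetic closed tissue. The lowest share, in library 13 (exact 95% interval 78.5% to 83.2%), did not overlap the highest, in library 09 (95.8% to 97.8%), in counting error, but the groups overlapped. Under the same limit the summed receptor level ran from 110.3 to 190 CPM in normal and from 68.6 to 133 CPM in diabetic dams.

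Cyp26a1, which breaks retinoic acid down and carries the second response element printed above, was at 0 and 7.06 CPM in normal open, 4.99 and 1.48 CPM in normal closed, 18.0 and 0 CPM in diabetic open, and 11.5 and 5.30 CPM in diabetic closed tissue. Libraries 13 and 15, the highest for Aldh1a2, were also the highest for Cyp26a1, and libraries 14 and 09, the lowest for Aldh1a2, had no Cyp26a1 tag, which allows up to 0.358 and 0.296 CPM. In closed tissue both libraries of diabetic dams were above both of normal dams, by a small margin. The log2 fold change for diabetic against normal dams was 1.37 (SE 1.64; edgeR adjusted p = 0.9992), and it was -0.16 without library 13 and 2.80 without library 10. For closed against open tissue it was -0.04 (SE 1.62; edgeR adjusted p = 0.9999).

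**Figure D3:**
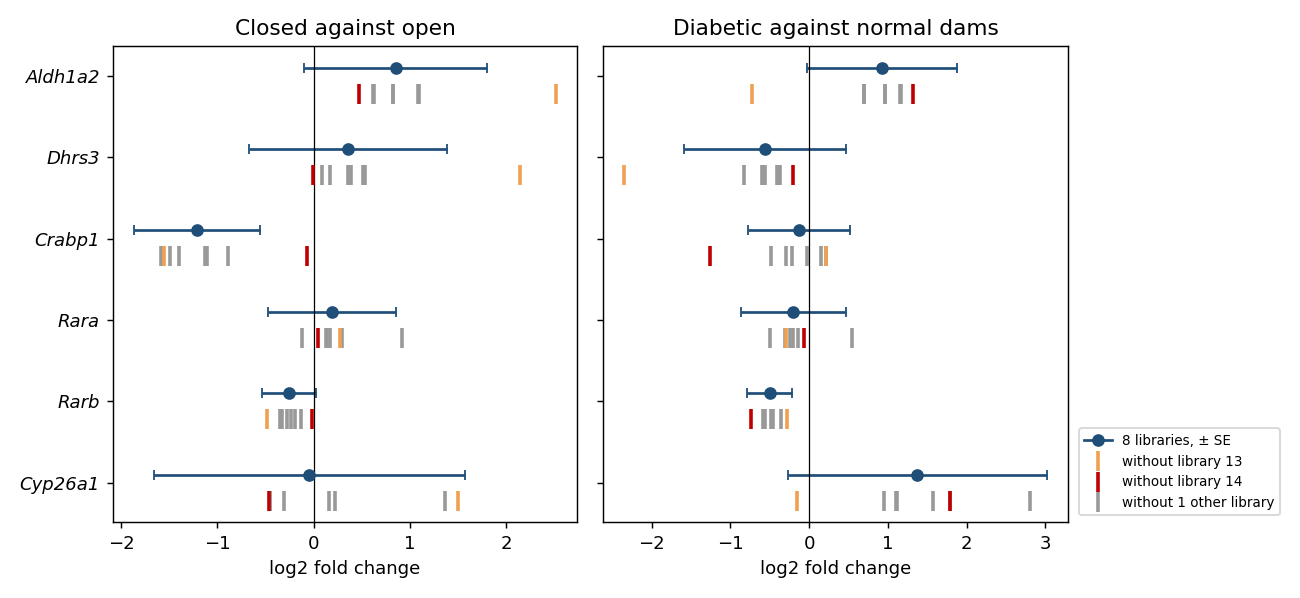
Log2 fold changes (horizontal axes) of the 6 tested genes that need no bound, for closed against open tissue and for diabetic against normal dams, as points with standard errors from the additive fit of 8 libraries and as ticks with 1 library left out. Leaving out library 13 moves Aldh1a2 between dams from 0.93 to -0.73, and leaving out library 14 moves Crabp1 between regions from -1.21 to -0.07.

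Set against all genes, the 9 genes gave no call. Of the 8 that passed the filter on low counts, 0 passed the edgeR threshold in each of the 7 comparisons, and of all 11779 genes tested 0% passed in each of them. At an unadjusted edgeR p under 0.05 there were 391 genes for closed against open and 536 for diabetic against normal dams, none of them among the 8. Within groups the corresponding numbers were 400 genes for closed against open in normal dams, 327 in diabetic dams, 851 for diabetic against normal dams in open tissue, 138 in closed tissue and 440 for the interaction, and Crabp2 was among the 327, the 851 and the 440. DESeq2 called 9, 37, 27, 46, 195, 2 and 17 genes in these 7 comparisons in the order named, and limma-voom called 0, 0, 0, 1, 1, 0 and 1, with none of the 8 among them. For closed against open tissue 5 of the 8 had a positive log2 fold change, with a median of 0.27, against 55.5% and 0.07 for all genes. For diabetic against normal dams 3 of 8 were positive with a median of -0.16 (the same with Rarg set to its bound), against 52.7% and 0.04.

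Complete separation of groups was read the same way. None of the 8 had all 4 closed libraries above or below all 4 open ones, which held for 2.75% of all genes tested, and none separated the dams, which held for 3.63%. With 2 libraries against 2, separation was common: it held for 28.5% of genes between regions in normal dams, 33.8% between regions in diabetic dams, 32.5% between dams in open tissue and 31.2% between dams in closed tissue. Of the 8, Aldh1a2 was higher in closed tissue of normal dams and Crabp1 and Rarb were lower. Crabp2, Rara and Rarg were higher in closed tissue of diabetic dams, and none separated the dams in open tissue. In closed tissue Aldh1a2, Crabp2, Rarg and Cyp26a1 were higher in diabetic dams and Rarb and Dhrs3 were lower. Several separations were narrow. Rara in diabetic dams separated by 12.98 against 12.97 CPM. Between dams in closed tissue, libraries 16 and 12 stood at 115.0 and 113.9 CPM for Aldh1a2 and 89.7 and 94.8 CPM for Rarb. Cyp26a1 stood at 5.30 and 4.99 CPM in libraries 16 and 11, and Crabp2 at 5.95 and 5.04 CPM in libraries 15 and 12. Each of these pairs overlapped in exact 95% intervals. Rarg passed the filter on low counts only through diabetic closed tissue, so its separations carry no weight. Only the count between dams in closed tissue, 6 of 8, was well above the share of all genes. That count includes Rarg and the narrow separations named above, and the genes were chosen with earlier results known. Nothing is therefore read from it.

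Several of the genes varied widely between libraries. The coefficient of variation over the 8 libraries was 76.7% for Aldh1a2 and 86.7% for Crabp1, against a median of 29.8% among the 5276 tested genes with a mean of at least 20 CPM. Of those genes 1.99% varied more than Aldh1a2 and 1.44% more than Crabp1. Rarb, at 33.1%, was near the middle, with 41.2% of the genes varying more. Between the diabetic open libraries the median absolute log2 difference was 2.62 for the 8 tested genes and 0.91 for all genes, and 4 of the 8 differed by over 2, against 26.1% of all genes. Between the normal open libraries the medians were 1.24 and 0.85, with 3 of the 8 over 2 against 29.5% of all genes. Between the normal closed libraries the medians were 0.35 and 0.70, and between the diabetic closed libraries they were 0.75 and 0.51. Few genes of moderate level lacked tags in library 14: of 6923 that averaged at least 10 CPM in the other 7 libraries 1.75% had no tag there, against 2.37% in library 10 and 0% to 0.407% in the other libraries. Among genes that averaged at least 100 CPM elsewhere, none was without a tag in any library.

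Rxra and Rxrb, the receptors that pair with the 3 retinoic acid receptors on DNA, stood at 75.2 to 171 and 82.3 to 211 CPM over the 8 libraries. Rxrb had log2 fold changes of 0.46 (SE 0.24) for closed against open and -0.56 (SE 0.24; edgeR unadjusted p = 0.0395, adjusted p = 0.9992) for diabetic against normal dams. Rxra had 0.50 (SE 0.29) and -0.51 (SE 0.29), and Rxrg was at most 0.992 CPM. The alcohol dehydrogenase gene Adh5 was detected in all libraries, at 61.2 to 159 CPM. The retinol uptake receptor gene Stra6 was at 9.07 to 82.6 CPM, while Rbp4, the carrier of retinol in blood, was at most 5.47 CPM. Of the paralogs of the enzymes, Aldh1a1, Aldh1a3 and Cyp26c1 had no tag in any of the 8 libraries, so Aldh1a2 was the only one of these 3 retinaldehyde dehydrogenases detected. Cyp26b1 was at 61.6 CPM in library 13 and at 0 to 7.26 CPM elsewhere, and its log2 fold change between dams was 3.22 (SE 1.78; edgeR adjusted p = 0.9992), or 2.41 (SE 2.52) in closed tissue, which does not include that library. Of 28 other pathway genes listed, 22 had a count and 19 were tested. Of these 10 were higher in closed tissue (median 0.05) and 9 higher in diabetic dams (median -0.17), and 0 passed the edgeR threshold in either comparison.

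Genes known to respond to retinoic acid gave no call either. Of 25 listed, 24 had a count and 20 were tested: 10 had a positive log2 fold change in closed tissue (median -0.06) and 16 in diabetic dams (median 0.43), with 0 past the edgeR threshold. Their summed level was 1053 to 1260 CPM in 7 libraries and 2183 CPM in library 13, so the median between dams is given beside that library. Meis2 and Nr2f1, transcription factor genes of the hindbrain and other tissues, were highest in library 13 at 392 and 348 CPM, and ranged from 150.1 to 268 and 47.5 to 135.8 CPM elsewhere. Hoxa4, a Hox gene, had a log2 fold change of -2.04 (SE 0.78, edgeR unadjusted p = 0.0247) in closed tissue. In diabetic dams its log2 fold change was 2.17 (SE 0.78, edgeR unadjusted p = 0.0188), at levels of 0.592 to 24.2 CPM. Nr2f2, an orphan receptor of mesoderm and vessels, had 1.49 (SE 0.60; edgeR unadjusted p = 0.0312) between dams, with 366 CPM in library 13 and 19.6 to 93.8 CPM elsewhere. Tgm2, a transglutaminase gene induced by retinoic acid, had -1.22 (SE 0.61; edgeR unadjusted p = 0.0695) in closed tissue and was highest in library 14, at 57.0 CPM.

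The FGF and caudal genes that retinoic acid is known to oppose were mostly rare. Of 16 listed, 15 had a count and 7 were tested, with 4 positive for closed tissue (median 0.35), 5 for diabetic dams (median 0.80) and 0 past the edgeR threshold. Fgf15, a growth factor gene of the neural tube, was the most abundant, at 38.6 CPM in library 13 and 157 to 389 CPM elsewhere. Its highest value was in library 14. Etv5, a transcription factor gene induced by FGF, was at 114 CPM in library 14 and at 0.148 to 47.5 CPM elsewhere, with a log2 fold change of -2.78 (SE 0.95; edgeR unadjusted p = 0.0139) for closed against open tissue. Dusp6, an FGF-induced phosphatase gene, had 1.55 (SE 0.70; edgeR unadjusted p = 0.0484) between dams, with 45.9 and 24.2 CPM in libraries 13 and 14 and 22.8 CPM in library 15. T, a gene of the primitive streak and notochord, was at 0.296 to 22.8 CPM. Wnt3a, a caudal and dorsal signal, had no tag in libraries 13 and 14 and 1.12 to 7.06 CPM in the others. In the additive comparisons the adjusted p in this list and in the list of responding genes were 0.9992 or 0.9999.

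**Figure D4:**
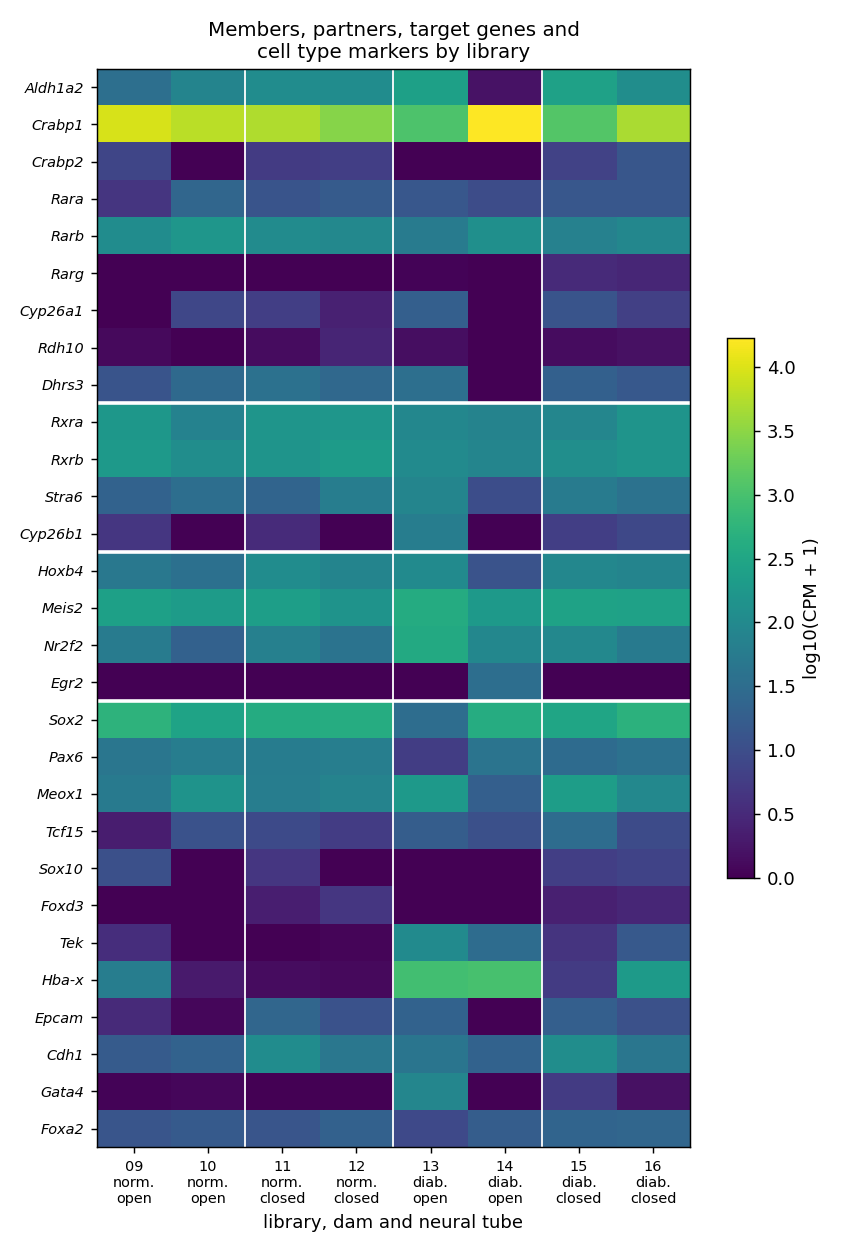
Level as log10(CPM + 1) (colour) of the 9 genes, pathway partners, responding genes and cell type markers (rows, in 4 blocks) in the 8 libraries (columns, in order of group). Crabp1 is the brightest row, with 16890 CPM in library 14, where the cell for Aldh1a2 is nearly as dark as cells at 0.

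Markers of other tissues differed between the same libraries, and their part in the values above was not tested. The neural progenitor list summed to 1709 CPM in library 13 and 2616 to 3489 CPM elsewhere. Lin28a made up most of this sum in every library, at 1566 CPM in library 13 and 1613 to 2424 CPM elsewhere. The sum therefore says little about the other genes of the list. Each of them with a tag, except Sox3, was lowest in library 13. Pax6 was at 4.92 CPM there against 29.6 to 62.9 CPM, and Hes5 at 13.9 CPM against 89.6 to 158 CPM. Dorsal neural tube and neural crest genes, of which 16 of 18 had a count, summed to 290.3 CPM in library 14, 345 CPM in library 13 and 567 to 1368 CPM elsewhere. The defining crest genes Sox10 and Foxd3 were at 0 to 9.78 and 0 to 3.7 CPM and had no tag in libraries 10, 13 and 14, while other genes of the list were abundant, with Msx1 at 67.7 to 1015 CPM. The endothelial list summed to 400.2 CPM in library 13 and 156 CPM in library 14 against 40.9 to 132 CPM elsewhere, with Tek at 106 and 30.1 CPM against 0 to 14.1 CPM, and its defining gene Kdr was at 0 in 7 libraries. The primitive blood list summed to 925 and 1010 CPM in libraries 13 and 14 and to 2.52 to 209.6 CPM elsewhere. Cardiac and lateral mesoderm genes summed to 260.1 CPM in library 13, with Gata4 at 87.7 CPM, and to 0 in library 14 and at most 17.3 CPM elsewhere, and Nkx2-5 was at 0 in all 8. Surface ectoderm genes summed to 312 to 354 CPM in libraries 11, 13 and 15 and to 69.5 to 127 CPM in the others, with Cdh1 at 115 and 119 CPM in libraries 11 and 15, and Epcam at 0 in library 14. Endoderm and notochord genes summed to 81.7 to 187 CPM, with Foxa2 at 7.69 to 23.9 CPM and Shh at 0 to 12 CPM.

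The genes whose levels followed the retinoic acid genes most closely were found over the 8 libraries by Pearson's r of log2 CPM, among 5275 or 5276 tested genes with a mean of at least 20 CPM. For Aldh1a2 these were 2410016O06Rik, Ccnd3 and Mapk8, with r of 0.99, 0.977 and 0.972, and 38 genes exceeded 0.9. Without libraries 14 and 09, the farthest from the median, r was 0.968, 0.73 and 0.867. For Crabp1 they were Elac1, Dbx1 and Lpcat3, with r of 0.98, 0.971 and 0.956, or 0.955, 0.93 and 0.932 without libraries 13 and 15. Dbx1, a transcription factor gene of neural progenitors, was at 231 CPM in library 09, 229 CPM in library 14 and 1.19 to 53.1 CPM elsewhere. For Crabp2 the 2 closest given here were Vdac3 and 1700029F09Rik, with r of 0.987 and 0.965. With 8 points and this many genes such values arise readily, the points share library totals, and they are given as a description.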

How the data were processed

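Gene counts were taken as deposited by the authors, 1 table of raw SAGE tag counts per gene symbol and library. The submitters' processing notes name mm9 as the genome build. The sources used here do not give the aligner, counter, annotation, strand setting or handling of tags with several matches. CPM were computed from library totals and given as mean ± SD. Low genes were removed with filterByExpr (minimum count 10, minimum total 15), and the 11779 others were tested with edgeR 4.0.16 in R 4.3.3 (TMM, quasi-likelihood F test, Benjamini-Hochberg adjusted p below 0.05 over all 11779). An additive model of region and dam gave the main comparisons, and a model of the 4 groups gave contrasts and the interaction. Standard errors were derived from the F statistic. Groups were taken from the sample labels. No library number occurs in more than 1 group. Alternatives were DESeq2 1.42.0, limma-voom (limma 3.58.1), other scalings and filters, and each library left out (for the bounds on Crabp2 and Rarg, chosen after seeing the data). Named genes of the other lists were the 4 with the highest mean level and the 2 with the smallest p in each additive comparison, plus partners, paralogs and defining cell type markers. A few genes that this rule names are not reported here. For likeness, levels were log2 CPM with a prior count of 2. The 9 genes, the lists and the tests were chosen with earlier results of these data known. The edgeR fit was tested on simulated data. Promoter windows come from RefSeq, and gene overlaps from GENCODE M21, both on GRCm38, for annotation only.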

Additional observations from a re-analysis of the deposited data

Results flagged for a closer look

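In sets of 4 libraries that share a region or a dam, a library was singled out where its gap to the nearest other, divided by the range of the set, exceeded Dixon's 95% critical value for 4 values. This held in 5 of the 35 sets checked. The critical value marks about 1 set in 20 for normally distributed values in separate sets. These sets share libraries and some hold zeros, so the 5 are not set against that rate. For Crabp2 and Rarg all other values of the set were 0, where the rule marks any tag. Aldh1a2 was at 261.8 CPM in library 15, above the other closed libraries. Crabp2 was at 6.616 CPM in library 09, the only open library with a tag. Rara was at 8.476 CPM in library 14, below the other libraries of diabetic dams. Rarg was at 0.1201 CPM in library 13, from 2 tags, the only open library with any. Rdh10 was at 1.777 CPM in library 12, from 12 tags, above the other closed libraries.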

How the results depend on the processing

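Each comparison was refitted under 14 alternatives, 8 of which leave out 1 library. Over 26 chosen log2 fold changes of the retinoic acid genes, 11 kept their direction under all 14, and 34 of 364 values reversed. The 26 covered Aldh1a2, Crabp1, Rara, Rarb, Cyp26a1 and Dhrs3 in the additive comparisons. In the contrasts within dams and within regions they covered Aldh1a2, Crabp1 and Rarb, and in the interaction Aldh1a2 and Crabp1. Crabp2, Rarg and Rdh10 were not in this tally. For closed against open, diabetic against normal dams, closed against open in normal dams and in diabetic dams, diabetic against normal dams in open and in closed tissue, and the interaction, in this order, 0 genes were called by edgeR throughout. In the same order DESeq2 called 9, 37, 27, 46, 195, 2 and 17, and edgeR with no filter on low counts called 29, 89, 22, 41, 138, 11 and 23. limma-voom called 1 gene in closed against open of diabetic dams, 1 between dams in open tissue and 1 for the interaction. Leave-one-out ranges were 0 to 3, 0 to 2, 0 to 18, 0 to 21, 0 to 61, 0 to 3 and 0 to 9. Of the retinoic acid genes, 1 (Crabp1) was called with no filter in closed against open, additive and in diabetic dams. Leave-one-out calls ranged from 0 to 1 (Aldh1a2, without library 13) in closed against open of diabetic dams, between dams in open tissue and for the interaction, and were 0 elsewhere. The causes were not tested.

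Under limma-voom Cyp26a1 stood at 2.30 between regions, Rara at 0.35 between dams, Rarb at 0.10 between regions of diabetic dams, Aldh1a2 at -0.48 and Crabp1 at -1.14 between dams in open tissue, and the interactions of Aldh1a2 and Crabp1 at 1.02 and 0.57, all opposite in sign to edgeR. With 1 library left out, Aldh1a2 ranged from -0.32 to 8.31 between regions of diabetic dams (reversed without 14 or 15), from -0.73 to 1.32 between dams and -6.52 to 2.11 in open tissue (both reversed without 13), and from -1.37 to 7.26 for the interaction (reversed without 09, 13 or 16). Crabp1 ranged from -2.78 to 1.5 between regions of diabetic dams (reversed without 14), from -1.26 to 0.22 between dams (without 11, 13 or 15), from -2.83 to 1.09 in open tissue (without 10 or 14), from -1.69 to 0.25 in closed tissue (without 11 or 15) and from -1.88 to 2.42 for the interaction (without 14 or 15). Cyp26a1 ranged from -0.46 to 1.5 between regions (reversed without 10, 12, 13 or 16) and -0.16 to 2.80 between dams (without 13). Dhrs3 ranged from -0.01 to 2.14 between regions (without 14), Rara from -0.12 to 0.92 between regions (without 09) and -0.50 to 0.54 between dams (without 10), and Rarb from -0.60 to 0.60 between regions of diabetic dams (without 14 or 15). Where an arm is left with 1 library, that library is assumed to vary like the other groups. A group mean was counted as moved where TMM scaling shifted it by more than the SD of its libraries. Of 36 group means, 1 moved, Aldh1a2 in normal closed tissue, from 113.4 to 115.9 CPM, where that SD was 0.686 CPM. TMM factors lay between 0.975 and 1.04. Under this rule a group with a wide spread could hardly move, and a group without a tag could not. No paired analysis was possible because no library number occurs in more than 1 group. Rdh10 and Rarg had at most 12 and 13 tags in a library, so their values are near the floor. The number of genes with a count did not follow the library total. It was highest in libraries 15 and 16, at 12308 and 12924, though library 15 had the smallest total. It was lowest in libraries 10 and 14, at 9920 and 10071. The part of this difference in the genes without a tag was not tested.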

Other observations

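The hindbrain genes Egr2 and Hoxb1 were chosen after their values were seen. Egr2, a transcription factor gene of rhombomeres, was at 33.1 CPM in library 14 and had no tag in the other 7 libraries. Hoxb1 was at 1.07 CPM in library 14, at 0.353 and 1.19 CPM in normal open tissue and at 6.23 to 30.1 CPM in the other 5 libraries. Library 14 was also the library with the most Crabp1 and the least Aldh1a2.

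Of the 31 genes with a DR5 element in a promoter window, 12 were listed in the files and 4 had a count and were tested, which are Blvrb, Cyp26a1, Rarb and Tnfsf13b. For closed against open tissue 2 of the 4 had a positive log2 fold change, and for diabetic against normal dams 2 of the 4. Blvrb, a biliverdin reductase gene, was at 0 to 22.9 CPM, and Tnfsf13b, a cytokine gene, at 0 to 3.41 CPM.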
